A study of Bos taurus with 6 samples.

Results

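Cholesterol synthesis and its sterol regulation were followed in cumulus cells of cattle, which surround the oocyte in the follicle, through a list of 36 genes taken by name. Every probe set whose single gene symbol in the platform's annotation is one of these names was used. That gave 44 probe sets for 29 genes, out of 24016 probe sets and 9155 named genes on the array. The other 7 listed genes had no probe set under that rule and were not analysed here: IDI1, HSD17B7, SC5D, STARD3, STARD4, ABCA1 and ABCG1. For counts and medians each gene was read from its brightest probe set, the one with the highest mean over the 6 arrays.

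Cholesterol is built from acetyl-CoA through mevalonate and the isoprenoid diphosphates to squalene, which is oxidised, closed into lanosterol and trimmed to cholesterol. When membranes run short of sterol, SCAP escorts the SREBP transcription factors from the endoplasmic reticulum to the Golgi, where the proteases of MBTPS1 and MBTPS2 release them, and INSIG proteins hold the complex back when sterol is plentiful. Excess sterol is esterified, exported, or sensed as oxysterol by the LXR receptors. In the ovary cholesterol also feeds steroid synthesis, and mouse oocytes make little of it themselves and receive it from their cumulus cells.

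The arrays were Affymetrix bovine arrays hybridised with biotin-labelled RNA of cumulus cell pools from cows crossbred between Bos indicus and Bos taurus, whose ovaries were collected at slaughter. The cumulus-oocyte complexes behind 3 arrays came out of follicles at least 8 mm across, labelled competent and here called large-follicle, and those behind the other 3 arrays out of follicles of 1 to 3 mm, labelled incompetent and here called small-follicle. The comparison asks which cumulus transcripts differ with follicle size, which the study takes as a model of oocyte competence. Complexes of both groups were selected for compact cumulus in several layers, the labels give the same protocols for both, and no age of the animals is stated there. The titles call the arrays biological replicates, but the number of cows or complexes behind a pool is not stated, so the p-values here rest only on how these pools vary. The array number limits the precision.

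Values are log2 signals, with array medians from 5.64 to 5.68. Markers of granulosa and cumulus cells were bright, with array means over 12 of 13 listed genes from 11.16 to 11.29 in large-follicle and from 10.63 to 10.78 in small-follicle arrays. Of these 12 markers 6 were called higher in large-follicle arrays and 1 lower, against 7.08% and 8.3% of all genes. The 6 include CYP11A1, CYP19A1 and NR5A2. The part of these markers in the sterol gene differences was not tested. The 7 measured oocyte markers averaged 3.73 to 3.99 per array, near the lower quartile of all probe set means (3.83). Of these, ZP2, ZP4 and KPNA7 lay below that quartile in every array. GDF9, ZP3 and NLRP5 lay above it in every array, with 6-array means of 4.79, 4.73 and 4.87. For 6 control transcripts the signal of the 3' probe set minus that of the 5' one, a sign of RNA quality and here called the 3' bias, averaged 1.98 ± 0.19 in large-follicle and 2.46 ± 0.27 in small-follicle arrays (SD, n = 3 each; exact permutation test, 2-sided, p = 0.1, the smallest possible with 3 against 3). The 3' bias of every large-follicle array (at most 2.15) lay below that of every small-follicle array (at least 2.16). Fits with 3' bias as a covariate therefore cannot fully tell it apart from follicle size. Why a call was lost in such a fit was not tested. In bulk RNA, a change in the share of a cell type and a change in RNA per cell cannot be told apart.

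Of the 29 measured genes 2 were higher in large-follicle arrays, SQLE and SOAT1, and 0 were lower. SQLE, the squalene epoxidase that commits squalene to sterols, was 1.95-fold higher (95% interval 1.62 to 2.34), and SOAT1, which esterifies cholesterol for storage, was 1.53-fold higher (1.30 to 1.79). The remaining 27 did not pass limma with Benjamini-Hochberg adjustment at 0.05, among them all 6 regulators of the SREBP system and both measured LXR receptors. At an unadjusted limma p under 0.05, 4 members were higher (SQLE, SOAT1, FDFT1 and SREBF2) and 2 lower (MVK and EBP), against 14.5% and 16.7% of all genes. Across all 9155 genes read the same way, 7.08% were called higher and 8.3% lower, so the count of 2 higher members lies close to the background share. The median difference, large-follicle minus small-follicle, was 0.15 over the 29 members and 0.01 over all genes, and 21 of the 29 differences were above 0, against 51.5% of all genes. The groups did not overlap in 10 of the 29, against 36.5% of all genes.

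**Figure D1:**
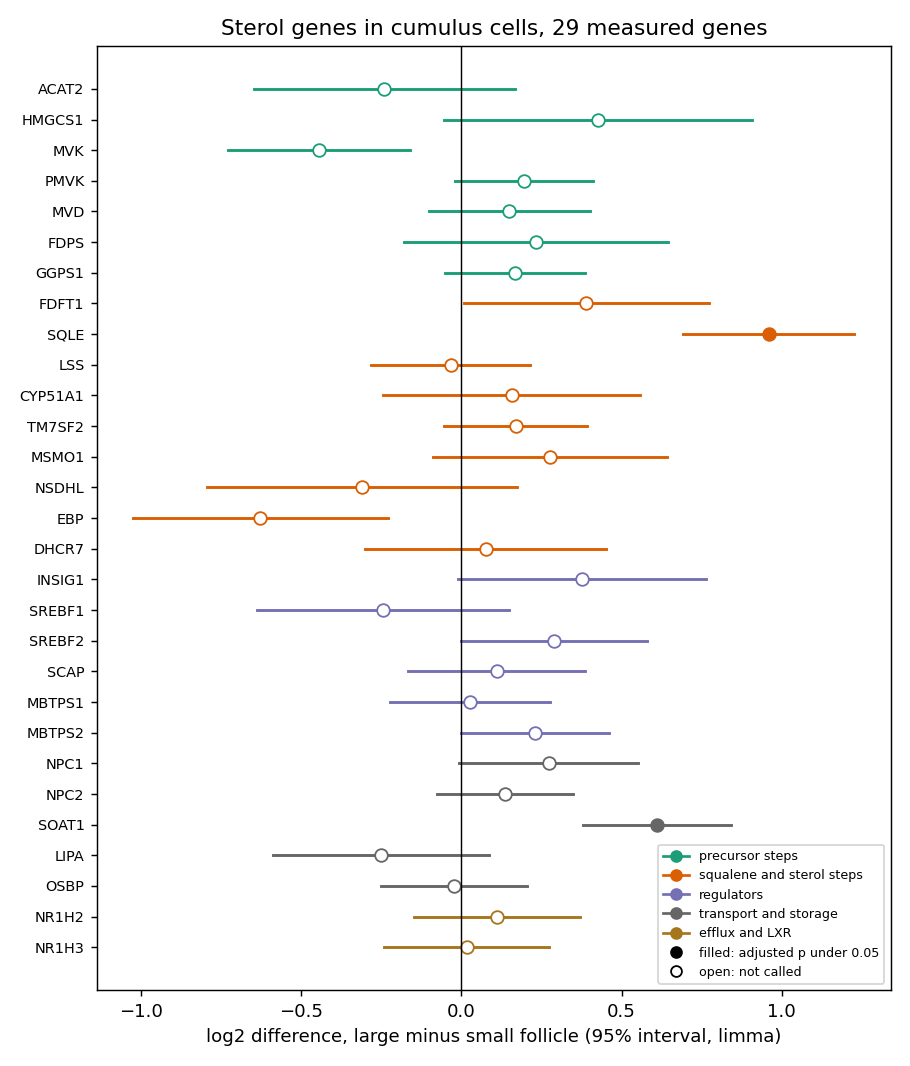
Log2 difference between large-follicle and small-follicle arrays (3 each) for the 29 measured genes, in pathway order from top to bottom and coloured by role; points are limma estimates from the brightest probe set and bars their 95% intervals. Only SQLE (0.96) and SOAT1 (0.61) are filled, meaning an adjusted p under 0.05, while EBP (-0.63) and MVK (-0.44) lie farthest to the left.

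The precursor steps, from acetyl-CoA to the farnesyl and geranylgeranyl diphosphates, had 7 of 8 listed genes measured. Their median difference was 0.17, with 0 called in either direction and 1, MVK, at an unadjusted limma p under 0.05. MVK, mevalonate kinase, read 7.88, 8.21 and 8.24 in large-follicle replicates 1 to 3 and 8.64, 8.44 and 8.58 in small-follicle replicates 1 to 3. The small-follicle arrays were thus all above the large-follicle ones. The difference of -0.44 ± 0.12 (SE) lay just outside the threshold (limma adjusted p = 0.0518). Of its dimmer probe sets, 1 read -0.21 and the other 0.17, neither called, so the direction for MVK is that of the probe set used.

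HMGCS1, the synthase that makes HMG-CoA, also gave different answers by probe set. At the brightest probe set it read 11.80, 11.95 and 11.99 in large-follicle and 11.90, 11.58 and 10.98 in small-follicle replicates 1 to 3. The groups overlapped through small-follicle replicate 1, while small-follicle replicate 3 lay well below all the others. The difference was 0.43 ± 0.21 (limma adjusted p = 0.24). Its dimmer probe set read 6.56, 6.95 and 6.58 against 6.29, 6.12 and 5.81, without overlap, and was called higher at 0.62 ± 0.16 (limma adjusted p = 0.0358). That call did not hold without large-follicle replicate 1 (0.69), 2 (0.50) or 3 (0.68), or without small-follicle replicate 2 (0.65) or 3 (0.49).

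The other precursor enzymes were not called. ACAT2, the cytosolic thiolase that opens the pathway, read 9.21, 9.14 and 9.52 in large-follicle arrays and 9.87, 9.51 and 9.21 in small-follicle arrays, so the arrays interleaved. FDPS, which makes farnesyl diphosphate, read 9.77, 9.91 and 10.12 against 9.96, 9.84 and 9.30, again with overlap. PMVK, the kinase that follows mevalonate kinase, read 6.24, 6.23 and 6.36 against 6.11, 6.13 and 6.00, without overlap, a difference of 0.20 ± 0.09 (limma adjusted p = 0.227). MVD, the decarboxylase after it, differed by 0.15 ± 0.11, and GGPS1, which makes geranylgeranyl diphosphate for protein prenylation, by 0.17 ± 0.10, both with overlap. The 95% intervals of PMVK, MVD and GGPS1 lay within a 1.5-fold change either way.

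Among the squalene and sterol steps 9 of 11 listed genes were measured. Of these 1 was called higher and 0 lower, against 7.08% and 8.3% of all genes, with EBP lower at an unadjusted limma p under 0.05. The median difference was 0.16. SQLE, from its only probe set, read 10.95, 11.05 and 10.99 in large-follicle replicates 1 to 3 and 10.25, 9.98 and 9.88 in small-follicle replicates 1 to 3. Every large-follicle array lay above every small-follicle array, and the large-follicle values were tight, with an SD of 0.05 against 0.19. The difference of 0.96 ± 0.12 (SE; limma adjusted p = 0.00253) ranked 292 in size among the 9155 genes. By its suffix this probe set is of a design that can bind several transcripts, which may be those of 1 gene. The brightest probe sets of HMGCS1, MVK, EBP, SREBF1, SCAP and NR1H3 are of such a design too. SQLE stayed called without any 1 array, from 0.88 to 1.07, and was 1.11 with 3' bias as a covariate (limma adjusted p = 0.0478).

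FDFT1, the squalene synthase that supplies SQLE with its substrate, read 9.46, 9.48 and 9.45 in large-follicle and 9.41, 9.11 and 8.70 in small-follicle arrays at its brightest probe set. The groups were separated by a narrow gap, since small-follicle replicate 1 came within 0.04 of the lowest large-follicle array. The difference of 0.39 ± 0.17 was not called (limma adjusted p = 0.176). A dimmer FDFT1 probe set read 6.68, 7.19 and 6.80 against 6.01, 6.23 and 6.08 and was called higher at 0.78 ± 0.14 (limma adjusted p = 0.0113). By its suffix it too can bind several transcripts. It stayed called without any 1 array (0.63 to 0.89), and with 3' bias as a covariate it read 0.55 and was not called (limma adjusted p = 0.224). The third FDFT1 probe set averaged 2.61 and 2.62, under the lower quartile of probe set means, and read -0.01.

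EBP, the sterol isomerase of the late pathway, leaned the other way. It read 8.65, 8.58 and 9.01 in large-follicle and 9.55, 9.54 and 9.03 in small-follicle replicates 1 to 3. Both replicates numbered 3 lay close together, at 9.01 and 9.03, and the other arrays stood well apart. The difference was -0.63 ± 0.17 (limma adjusted p = 0.05004, just above the threshold). EBP was called lower when either array numbered 3 was left out (-0.76 without the large-follicle one, -0.80 without the small-follicle one), and it read -0.23 with 3' bias as a covariate.

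**Figure D2:**
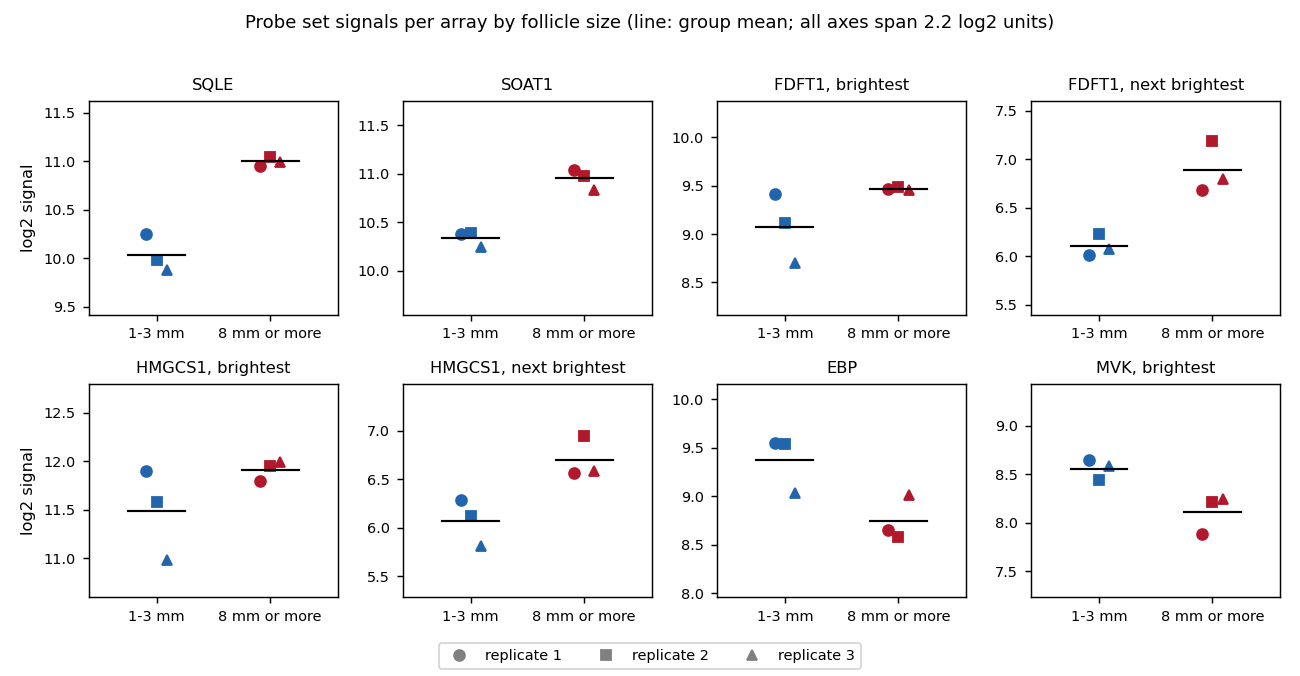
Log2 signal of each array in the small-follicle group (blue) and the large-follicle group (red) for 8 probe sets of 6 genes; marker shapes give the replicate number and lines the group means of 3 arrays, and every panel spans the same range. SQLE, SOAT1 and the dimmer FDFT1 and HMGCS1 probe sets show separated groups with the large-follicle arrays higher, and so does the brightest FDFT1 probe set, by 0.04. MVK (gap 0.20) and EBP (gap 0.02) are separated with the small-follicle arrays higher. The brightest HMGCS1 probe set overlaps.

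The enzymes that carry lanosterol to cholesterol gave no called difference. CYP51A1, the lanosterol demethylase, read 10.34, 10.35 and 10.37 in large-follicle and 10.58, 10.19 and 9.82 in small-follicle arrays, so the small-follicle arrays fell on both sides of a tight large-follicle group. MSMO1, the methylsterol oxidase that follows, read 11.81, 11.72 and 11.62 against 11.76, 11.44 and 11.12. NSDHL, which removes the carboxyl group in the same demethylation, read 8.70, 8.39 and 8.54 against 9.29, 8.89 and 8.38, and DHCR7, the last reductase, 8.97, 9.11 and 9.04 against 9.24, 9.07 and 8.58. In all 4 of these genes small-follicle replicate 3 was the lowest of the 6 arrays and the groups overlapped. LSS, the cyclase that makes lanosterol, differed by -0.03 and TM7SF2, a sterol reductase, by 0.17. The 95% intervals of LSS, CYP51A1, TM7SF2 and DHCR7 lay within a 1.5-fold change either way, and those of MSMO1 (-0.09 to 0.64) and NSDHL (-0.79 to 0.17) did not.

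By median SD the squalene and sterol enzymes had the larger spread among small-follicle arrays, and the precursor enzymes as a list did not. Over the 9 measured squalene and sterol enzymes the median SD was 0.32 in small-follicle and 0.08 in large-follicle arrays, and the small-follicle SD was the larger in 8 of the 9. Over the 7 measured precursor enzymes the medians were 0.12 and 0.13, and the small-follicle SD was the larger in 3 of the 7. Those 3 were ACAT2 (0.33 against 0.20), HMGCS1 (0.47 against 0.10) and FDPS (0.35 against 0.18). Over all genes the median SDs were 0.12 in small-follicle and 0.13 in large-follicle arrays, and the small-follicle SD was the larger in 46.8%. Small-follicle replicate 3 was the lowest array of its group in 13 of the 16 measured synthesis enzymes, against 38.7% of all genes, and small-follicle replicate 1 was the highest in 12 of the 16, against 34.8%. These counts were made after the values were seen, on genes that share their arrays, and carry no test. In the large-follicle group, replicate 3 was the highest array in all 7 measured precursor enzymes, against 41.8% of all genes.

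**Figure D3:**
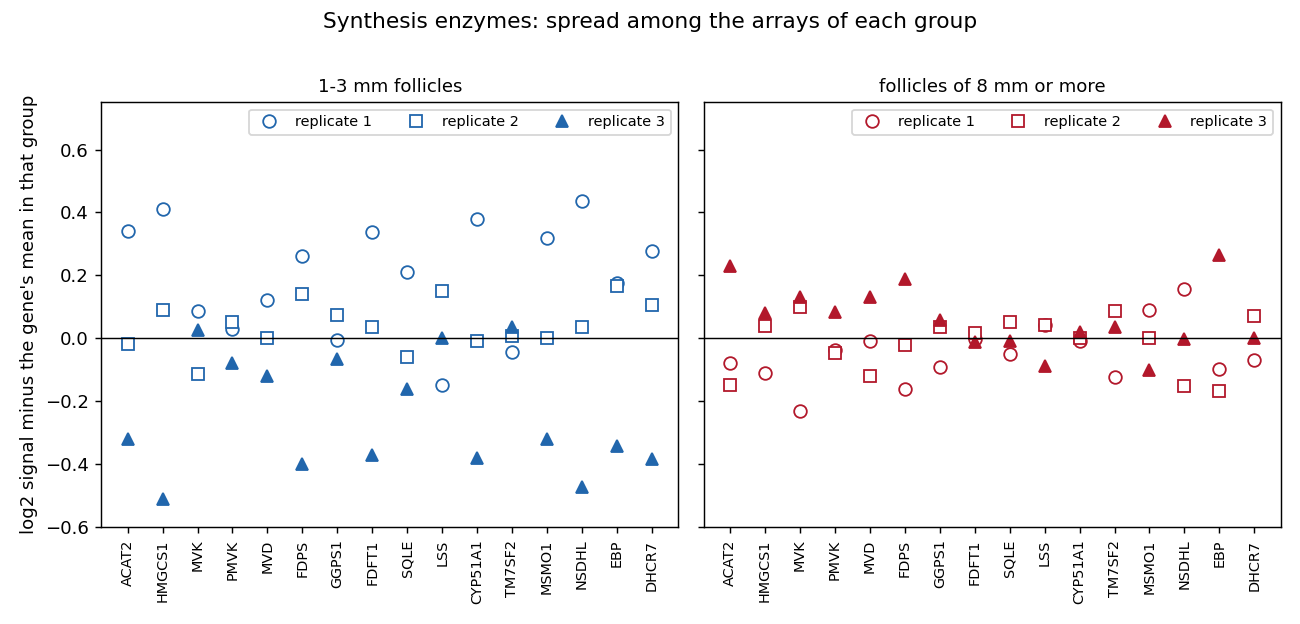
Log2 signal of each array minus the gene's mean in its own group, for the 16 measured synthesis enzymes in pathway order, with small-follicle arrays on the left and large-follicle arrays on the right (3 arrays each). Filled triangles mark replicate 3, which is the lowest small-follicle array in 13 of 16 enzymes, and the small-follicle points are the more widely spread for most enzymes from FDFT1 to DHCR7.

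Because of that spread, the size of the group difference depended on which small-follicle array was counted. The median difference over the 16 synthesis enzymes was 0.16 with all arrays, 0.06 without small-follicle replicate 3 and 0.21 without small-follicle replicate 1. Without small-follicle replicate 3, HMGCS1 read 0.17, FDPS 0.03, FDFT1 0.20 and MSMO1 0.12, and CYP51A1 (-0.03) and DHCR7 (-0.12) changed sign. The 3' bias differed within the small-follicle group too, at 2.68, 2.53 and 2.16 in replicates 1 to 3, the last close to large-follicle replicate 1 at 2.15. Markers of fibroblasts and stroma, 8 of 8 measured, averaged -0.60, -0.15 and 0.53 in small-follicle replicates 1 to 3 as deviations from their 6-array means. With 3' bias as a covariate the synthesis median was 0.35. The part of the 3' bias and of the stroma markers in the spread of these enzymes was not tested.

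None of the 6 regulators was called by limma, and 1, SREBF2, had an unadjusted p under 0.05. INSIG1, which retains SREBP in the endoplasmic reticulum and is itself induced by SREBP, read 11.31, 11.58 and 10.94 in large-follicle and 10.83, 10.78 and 11.09 in small-follicle arrays. Here the replicates numbered 3 crossed, and the other arrays were separated. The difference was 0.38 ± 0.17 (limma adjusted p = 0.196), and 0.05 with 3' bias as a covariate. SREBF2, which encodes the SREBP most tied to cholesterol genes, read 8.70, 8.81 and 9.08 against 8.71, 8.55 and 8.46, a difference of 0.29 ± 0.13 (limma adjusted p = 0.185) with overlap at small-follicle replicate 1.

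SREBF1, whose products mainly drive fatty acid genes, was read by 4 probe sets that differed in sign. The brightest gave 9.42, 9.11 and 9.56 in large-follicle and 9.77, 9.78 and 9.27 in small-follicle arrays, a difference of -0.24, and the others gave -0.01, 0.05 and 0.21. SCAP, the escort protein, differed by 0.11 at its brightest probe set and by 0.05, 0.04 and -0.01 at the rest. The protease genes MBTPS1 and MBTPS2 differed by 0.03 and 0.23. For SREBF2, SCAP, MBTPS1 and MBTPS2 the 95% intervals lay within a 1.5-fold change either way.

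In transport and storage 5 of 7 listed genes were measured. Of these 1 was called higher and 0 lower, against 7.08% and 8.3% of all genes, and 0 were lower at an unadjusted limma p under 0.05. SOAT1, from 1 probe set, read 11.04, 10.97 and 10.83 in large-follicle replicates 1 to 3 and 10.38, 10.39 and 10.24 in small-follicle replicates 1 to 3. Every large-follicle array lay above every small-follicle array, with a gap of 0.44 between the nearest of them. The difference of 0.61 ± 0.10 (SE; limma adjusted p = 0.0076) stayed called without any 1 array (0.56 to 0.67). With 3' bias as a covariate it was 0.72 and not called (limma adjusted p = 0.0783).

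Of 11 measured leukocyte markers 2 were called higher, LCP1 and CORO1A, against 7.08% of all genes, and 9 were not called. Their mean level per array ran from 4.58 to 5.50 in large-follicle and from 4.28 to 4.86 in small-follicle arrays, with overlap. As deviations from their 6-array means the leukocyte markers averaged 0.77, 0.05 and -0.14 in large-follicle replicates 1 to 3 and -0.37, -0.44 and 0.13 in small-follicle replicates 1 to 3. The 11 differences had a median of 0.51, and all were above 0, against 51.5% of all genes. PTPRC, the pan-leukocyte antigen CD45, averaged 3.57 and 3.49. By 6-array mean it alone among the 11 lay under the lower quartile of probe set means (3.83). In small-follicle arrays CORO1A averaged 3.67, also under that quartile, and LCP1 3.89, near it. Their large-follicle means were 4.30 and 4.78. The brightest leukocyte markers were CSF1R, at 6.37 in large-follicle and 6.15 in small-follicle arrays, and AIF1, at 6.19 and 5.62. The part of the leukocyte markers in the SOAT1 difference was not tested.

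LIPA, the lysosomal lipase that frees cholesterol from its esters, read 8.32, 7.92 and 8.00 in large-follicle and 8.13, 8.31 and 8.55 in small-follicle arrays, with overlap, and differed by -0.25 ± 0.15 (limma adjusted p = 0.332). NPC1 and NPC2, which pass cholesterol out of the lysosome, differed by 0.27 ± 0.12 and 0.14 ± 0.09. Neither was called. In both genes the large-follicle arrays lay above the small-follicle ones, by a gap of only 0.01. NPC1 read 9.93, 9.70 and 9.79 against 9.58, 9.33 and 9.69, and NPC2 10.42, 10.45 and 10.29 against 10.24, 10.23 and 10.28. OSBP, an oxysterol-binding exchanger between endoplasmic reticulum and Golgi, differed by -0.02. NR1H2, 1 of the LXR genes, read 7.69, 7.49 and 7.86 in large-follicle and 7.56, 7.57 and 7.58 in small-follicle arrays, so the large-follicle arrays fell on both sides of a tight small-follicle group. NR1H2 and NR1H3 differed by 0.11 and 0.02, 0 called and 0 with an unadjusted limma p under 0.05, and a dimmer NR1H3 probe set read 0.28 (limma adjusted p = 0.187).

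Other genes of sterol handling were read from lists drawn up by function, with earlier results of these data known. Beside the counts of these lists, 7.08% of all genes were called higher and 8.3% lower. Of 12 measured among other enzymes, uptake and turnover, 5 were higher and 0 lower, also 0 lower at an unadjusted limma p under 0.05. LRP8 and VLDLR, lipoprotein receptors, differed by 1.40 ± 0.13 and 0.81 ± 0.09, the HDL receptor SCARB1 by 0.63 ± 0.11, and MYLIP, a ubiquitin ligase that marks lipoprotein receptors for breakdown, by 1.65 ± 0.41. The fifth was INSIG2, a partner of INSIG1, at 0.82 ± 0.21, named after its value was seen. Of these, LRP8 kept its call with 3' bias as a covariate; VLDLR (0.74), SCARB1 (0.72), MYLIP (0.34) and INSIG2 (0.45) did not. MYLIP was also not called without large-follicle replicate 1 (1.68) or 2 (1.41) or small-follicle replicate 1 (1.27) or 2 (1.56). INSIG2 was not called without large-follicle replicate 1 (0.90) or small-follicle replicate 1 (0.80), 2 (0.83) or 3 (0.83). VLDLR averaged 8.28 and 7.48 at this probe set, and its 3 dimmer ones, under the lower quartile, read 0.02, -0.05 and -0.10. The other LRP8 probe set, also under that quartile, read 0.12 and was not called. The brightest LRP8 probe set averaged 5.45 in large-follicle and 4.05 in small-follicle arrays, the latter near that quartile (3.83). The dimmer INSIG2 probe sets read 0.42, with overlap, and 0.79, and neither was called. With 1 mean per gene over its probe sets LRP8 was called at 0.76, and VLDLR (0.17) and INSIG2 (0.68) were not called.

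Of the fatty acid genes that SREBP also drives 12 were measured, 4 were lower and 0 higher, with 1 higher at an unadjusted limma p under 0.05, and their median difference was -0.20. FASN, the fatty acid synthase, read 10.85, 10.72 and 11.00 in large-follicle and 11.45, 11.62 and 11.57 in small-follicle arrays, without overlap, a difference of -0.69 ± 0.11 (limma adjusted p = 0.00606). ACSL3, an acyl-CoA synthetase, differed by -0.60 at its brightest probe set and by -1.16 and -0.80 at its dimmer ones, which were also called lower (limma adjusted p = 0.0015 and 0.0102). The elongase ELOVL6 differed by -0.59 and MID1IP1, which promotes acetyl-CoA carboxylase activity, by -0.49. FASN stayed called without any 1 array (-0.76 to -0.62). With 3' bias as a covariate it read -0.67, ACSL3 at its brightest probe set -0.22, ELOVL6 -0.42 and MID1IP1 -0.39, and 0 of these 4 were called. The brightest ACSL3 probe set and ELOVL6 were not called without large-follicle replicate 1 (-0.62 and -0.48) or 2 (-0.53 and -0.59) or small-follicle replicate 1 (-0.51 and -0.49) or 2 (-0.55 and -0.59). MID1IP1 was not called without large-follicle replicate 1 (-0.44) or 2 (-0.41) or any small-follicle array (-0.53 to -0.44). The difference between the cholesterol and the fatty acid genes was not tested.

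**Figure D4:**
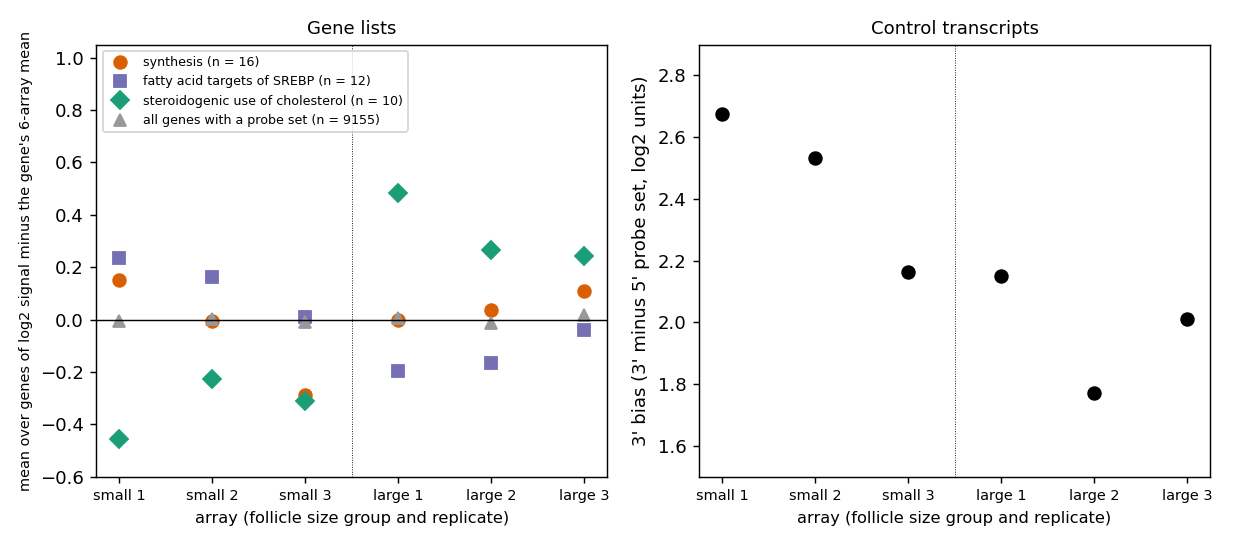
Left, mean over genes of the log2 signal minus each gene's 6-array mean, for 4 gene lists in each of the 6 arrays; right, the 3' bias of the same arrays in log2 units. The synthesis enzymes run from 0.15 in small-follicle replicate 1 to -0.29 in small-follicle replicate 3, while the steroidogenic list is above 0 in all large-follicle arrays and below 0 in all small-follicle arrays.

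Genes that use cholesterol for steroids were higher in 4 of 10 measured and lower in 0, also 0 at an unadjusted limma p under 0.05. Of these, CYP11A1, CYP19A1 and NR5A2 were already counted among the granulosa and cumulus markers called higher. CYP11A1, which cleaves the cholesterol side chain, read 11.32, 11.35 and 11.32 in large-follicle and 9.24, 9.82 and 9.78 in small-follicle arrays. CYP19A1, the aromatase, differed by 2.14 ± 0.22 at its brightest probe set and by 0.91 with 1 mean per gene, called both ways. The nuclear receptor NR5A2 differed by 0.70 ± 0.11 and POR, the reductase that feeds electrons to SQLE and CYP51A1 as well as to steroidogenic P450s, by 0.59 ± 0.11. With 3' bias as a covariate NR5A2 (0.53) and POR (0.51) were not called. STAR, which delivers cholesterol to CYP11A1, read 6.92, 5.68 and 4.94 in large-follicle and 4.77, 5.04 and 5.01 in small-follicle arrays. Large-follicle replicate 1 alone was far above the rest, and the difference of 0.91 ± 0.41 was not called (limma adjusted p = 0.206). Leaving out large-follicle replicate 1 gave 0.37, and leaving out large-follicle replicate 3 gave 1.36, which was called. The 5 theca markers, STAR among them, averaged 6.50 to 7.01 in large-follicle and 6.23 to 6.57 in small-follicle arrays, and their part in the STAR values was not tested.

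Among 10 measured sterol carriers and LXR partners 2 were lower and 0 higher, with 1 higher at an unadjusted limma p under 0.05. CH25H, which makes 25-hydroxycholesterol, read 6.39, 5.83 and 6.18 in large-follicle and 7.19, 7.07 and 6.46 in small-follicle arrays, a difference of -0.77 ± 0.21 (limma adjusted p = 0.0482). It was called in 1 of the 6 fits that leave out an array, the one without small-follicle replicate 3 (-0.997), read -0.07 with 3' bias as a covariate, and its dimmer probe set read 0.003; with 1 mean per gene it was -0.39 and not called. OSBPL11, an oxysterol-binding protein relative, differed by -0.60 ± 0.15 (limma adjusted p = 0.0371) and was called in 2 of those 6 fits, those without large-follicle replicate 2 or small-follicle replicate 1, where it read -0.74 and -0.70. With 3' bias as a covariate OSBPL11 read -0.99 and was not called (limma adjusted p = 0.0583).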

How the data were processed

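Cumulus cell RNA was measured on 6 arrays, 3 per follicle size group. The authors deposited 1 log2 signal per probe set and array. RMA is the method named in the submitters' processing notes, and the software and settings behind it are not stated in the labels. RMA makes arrays share 1 distribution, so values are relative to the other probes of an array, and it gives no detection call. After 112 control probe sets were left out, 24016 entered a limma fit (version 3.58.1, R version 4.3.3, functions lmFit and eBayes, constant prior, no block), as large-follicle minus small-follicle, with 2-sided moderated tests and Benjamini-Hochberg adjustment over all of them at 0.05, and no filter. Symbols came from the platform annotation (13292 probe sets with 1 symbol, 86 with several, 10638 with none); 13263 matched RefSeq ARS-UCD2.0 by gene identifier, used for names only.

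The members, lists and alternatives were chosen with earlier results of these data known. All members were named, in pathway order. Values in every array were given for called members, those with a called dimmer probe set, the largest difference in each role and some others. From each further list up to 4 called genes with the smallest p were named, plus STAR. The alternatives were leaving out each array, a replicate block, 2 filters, 3 scalings, array weights, a trended robust prior, 3 probe set choices, 2 thresholds and 3' bias as a covariate. The fit was tested on simulated data. Whether arrays of the same replicate number are pairs is not stated in the labels. They were not treated as pairs, as given under the dependence on processing. Promoter sequences were not used here. Plots used matplotlib 3.10.9 (python 3.11.15).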

Additional observations from a re-analysis of the deposited data

How the results depend on the processing

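SQLE stayed called in all 19 other settings that measured it (0.88 to 1.11), and SOAT1 in 19 of 20. SOAT1 lost its call with 3' bias as a covariate, where it read 0.72 and 1 member was called higher. The 3' bias itself did not overlap between the groups. Taking the probe set of smallest p for each gene gave 4 called higher, HMGCS1 and FDFT1 being added. Using 1 mean per gene gave 3 called higher, FDFT1 being added, and without probe sets that can bind several transcripts 2 were called higher, HMGCS1 and SOAT1. The count of members called lower was 0 and became 2 (MVK and EBP) with either filter on low signal, array weights, a trended robust prior or a threshold of 0.10, and 1 (EBP) with median centring or 1 mean per gene. Leaving out 1 array gave 2 members called higher each time and 0 to 1 called lower. Over all probe sets 1374 were called higher and 1720 lower; leaving out 1 array gave 787 to 1142 and 828 to 1337, a threshold of 0.01 gave 528 and 535, and 3' bias as a covariate gave 99 and 116. The replicate block gave 930 and 1034 and the same 2 members. Deviations of same-numbered arrays correlated at -0.002, -0.05 and -0.34, and no array correlated best with its own number. The numbers were not taken as pairs, but correlations over 3 arrays per group cannot show whether the pools were collected in pairs.

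Of 577 values of the members under other settings, 535 kept direction and side of the threshold and 23 changed sign, in 10 genes. LSS became 0.0019 with cyclic loess, 0.052 with 1 mean per gene and 0.17 at the smallest p. SREBF1 became 0.0025 with 1 mean per gene, 0.21 at the smallest p and 0.24 with 3' bias as a covariate. MVK became 0.17 without probe sets that can bind several transcripts, a choice that also leaves out SQLE and EBP. Array weights gave OSBP 0.037 and NR1H3 -0.059, and 3' bias gave ACAT2 0.19, NSDHL 0.35, MBTPS1 -0.14 and NR1H3 -0.10. Leaving out 1 array moved LSS from -0.11 to 0.042, CYP51A1 from -0.032 to 0.35, DHCR7 from -0.12 to 0.22, MBTPS1 from -0.062 to 0.093, OSBP from -0.087 to 0.018 and NR1H3 from -0.053 to 0.087. The cause was not tested. With 3 arrays per group, 11 of the 27 members not called had 95% intervals that reach a 1.5-fold change.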
